A study of Mus musculus and Homo sapiens
Mus musculus with 14 samples.

Results

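Genes that encode neuropeptide precursors, secretogranins or related secretory granule proteins were followed across Light-Seq libraries of the mouse retina. They are Cartpt, Vip, Npy, Tac1, Penk, Cck, Scg2, Chga, Vgf and Resp18, 10 of 25357 genes listed for retina. They were chosen by symbol after the levels in these same libraries were known, so their levels and fold changes are a description, and where the counts passing a threshold are given beside those of all genes, nothing is read from them. Light-Seq copies RNA into cDNA inside a fixed section, and a DNA barcode is then crosslinked by light to the cDNA of chosen cells. Retinas came from wild-type CD1 IGS mice in the third postnatal week. No retinal group carried a transgene or a treatment.

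In 5 sections, amacrine cells that stained with an antibody against TH (tyrosine hydroxylase, the enzyme of dopamine synthesis) and TH- amacrine cells received separate barcodes. TH+ cells are rare, with only a few in a section, and their libraries were the shallowest. In 4 further sections, all cut from 1 animal, separate barcodes marked the ganglion cell layer (GCL), the bipolar cell layer (BCL) and the outer nuclear layer (ONL), which holds the photoreceptors. Each library is thus 1 cell population of 1 section, and the 22 libraries are compared over sections. Replicate sections are technical replicates where they share an animal, so the reported errors and adjusted p-values cover the spread between sections and not between mice. Barcoded cells of a library were sequenced together, and fewer cells of a type cannot be told apart from less RNA per cell.

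Neuropeptides are made as precursors, packed into dense-core vesicles with granins, cut by prohormone convertases, trimmed and often amidated. They are released more slowly than classical transmitters and act on receptors coupled to G proteins. In the retina they are best known from amacrine cells, whose subtypes combine GABA or glycine with a particular peptide, and some ganglion cells express peptides as well. Granins such as secretogranin II (Scg2) and chromogranin A (Chga) are found in a much wider range of neurons than any single peptide.

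Depth set what could be seen. TH+ libraries held 30317 to 87449 UMIs (unique molecular identifiers, each counting 1 cDNA molecule once), TH- libraries 134394 to 200344, GCL libraries 585655 to 785013, BCL libraries 193869 to 208437 and ONL libraries 310228 to 801105. Levels are given as CPM, UMIs per 1000000 UMIs of the library. A count of 0 over all sections of a group allows up to 3 UMIs, which is 11.7 CPM in TH+ cells, 3.74 CPM in TH- cells, 1.12 CPM in the GCL, 3.74 CPM in the BCL and 1.32 CPM in the ONL, for counting error only.

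The populations carried the markers of their labels. Th was at 303 to 660 CPM in the TH+ libraries and at 11.6 to 49.9 CPM in the TH- libraries, with adjusted p = 5.53e-15 in edgeR's quasi-likelihood test. Slc18a2, the vesicular monoamine transporter, was also higher (log2 fold change 3.66 ± 0.37 SE, adjusted p = 3.08e-10), and Ddc, which completes dopamine synthesis, had UMIs in all TH+ libraries and none in TH- libraries. All 11 ganglion cell markers were higher in the GCL than in either other layer, 9 of 10 bipolar markers were higher in the BCL than in the ONL, and all 9 rod markers were lower in both than in the ONL. Rod RNA was present in every library. The 9 rod markers summed to 14110 to 36700 CPM in TH+ libraries, 8106 to 21500 CPM in TH- libraries, 4634 to 7823 CPM in the GCL, 12210 to 21090 CPM in the BCL and 57350 to 70720 CPM in the ONL.

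Promoter sequence was examined because several of these genes are textbook targets of cAMP signalling through the cAMP response element, TGACGTCA. RefSeq windows from 250 bases before to 50 bases after the transcription start (build GRCm38.p6, an earlier build than the GRCm39 of the counts) were found for 8 of the 10 genes. Vgf and Penk were not in the table. The full element, which reads the same on both strands, stood in 2 of the 8 windows, those of Cartpt and Scg2, and in 588 of all 32851 promoter windows (1.79%). Its first letters alone, TGACG on either strand and counted also inside the full element, stood in 6 of the 8 and in 20.8% of all windows. The sequences around the element or its first letters, in capitals, are shown for Cartpt, the most abundant of these genes in TH+ cells, for the granins Scg2 and Chga and for the peptide precursor Vip, each 5′ to 3′ on the gene's own strand.
Cartpt, chr13:99900762-99900821, minus strand: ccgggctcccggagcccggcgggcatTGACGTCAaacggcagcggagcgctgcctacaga
Scg2, chr1:79440061-79440120, minus strand: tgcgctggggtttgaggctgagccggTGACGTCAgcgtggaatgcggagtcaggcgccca
Chga, chr12:102554871-102554927, plus strand: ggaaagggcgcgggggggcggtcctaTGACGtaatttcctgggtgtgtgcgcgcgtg
Vip, chr10:5639113-5639169, plus strand: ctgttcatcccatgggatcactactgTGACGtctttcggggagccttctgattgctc

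The element began 112 bases before the start of Cartpt and 68 bases before that of Scg2. The short form began 44 bases before the start of Chga and 79 bases before that of Vip. Tac1 held the short form on the opposite strand at 2 positions and Cck at 1 position, whereas the windows of Npy and Resp18 held neither. These matches describe letters in a window. Cartpt and Scg2, which held the full element, differed from each other in their levels across cell populations, as the following values show.

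TH+ amacrine cells devoted more of their UMIs to the 10 genes than any other population did. The share was 0.227% to 0.468% in the TH+ libraries and 0.0602% to 0.103% in the TH- libraries, without overlap. It was 0.0941% to 0.104% in the GCL, 0.0600% to 0.0722% in the BCL and 0.0171% to 0.0277% in the ONL. Most of the TH+ share was a single peptide. Cartpt made up 69.5% of the 833 UMIs that the group had in TH+ cells, against 16.7% of 695 in TH- cells, 16.4% of 2659 in the GCL, 2.63% of 533 in the BCL and 5.62% of 516 in the ONL. Scg2 was the largest contributor in the other populations, with 45.5% in TH- cells, 43.7% in the GCL, 70.2% in the BCL and 57.4% in the ONL.

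**Figure D1:**
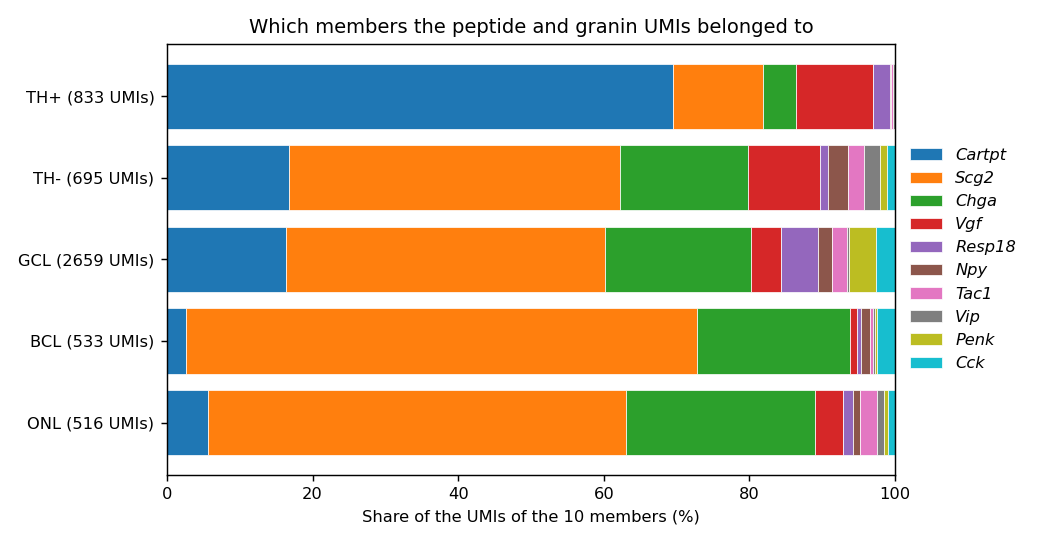
Share of the summed UMIs of the 10 genes that belonged to each gene (x axis, percent), for the 5 cell populations (y axis, with the UMI total in brackets). Cartpt filled 69.5% of the TH+ bar, and Scg2 the largest part of each of the other 4 bars.

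Cartpt encodes the precursor of the cocaine- and amphetamine-regulated transcript (CART) peptides and lies on chromosome 13 (100034990 to 100047006, minus strand, 3 exons). In sections 1 to 5 it was at 2021, 2013, 3247, 1492 and 3200 CPM in TH+ cells. In TH- cells of the same sections it was at 112, 116, 134, 185 and 169 CPM. The lowest TH+ library was thus well above the highest TH- library. The mean was 2394 ± 786 CPM (SD, n = 5) against 143 ± 32.5, a fitted log2 fold change of 4.01 ± 0.20 (SE). Within a section the ratio of TH+ to TH- ran from 8.08 in section 4, the section with both the lowest TH+ and the highest TH- level, to 24.2 in section 3. The SD among TH+ libraries was 3.52 times that of counting error alone, while for TH- libraries it was 1.07 times.

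Vgf, a granin-like precursor first known as a gene induced by nerve growth factor, lies on chromosome 5 (137055246 to 137062205, plus strand, 2 exons). It was at 306, 343, 376, 281 and 462 CPM in TH+ cells and at 78.9, 40.5, 104, 94.8 and 113 CPM in TH- cells. All TH+ values lay above all TH- values, and the fitted log2 fold change was 2.004 ± 0.26. The ratio within a section was 2.96 to 4.10 in 4 sections and 8.47 in section 2, where the TH- library held the lowest Vgf of its group. The spread among TH+ libraries was 0.809 times that of counting error.

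Resp18, a protein of the secretory pathway found in neurons and endocrine cells, lies on chromosome 1 (75248842 to 75255253, minus strand, 6 exons). It had 4, 8, 2, 3 and 2 UMIs in the TH+ libraries, or 81.7, 91.5, 47.1, 64.9 and 66.0 CPM. In TH- libraries it had 2, 0, 3, 3 and 0 UMIs, or 13.2, 0, 22.3, 14.97 and 0 CPM. The groups did not overlap, but 19 UMIs against 8 carry this difference, which was 2.75 ± 0.60 on the log2 scale. The ratio of the pooled rates was 7.45, with a 95% counting interval of 3.12 to 19.7. Exons of Resp18 overlap those of the long noncoding RNA Gm28902 on the opposite strand, and reads were counted without strand, so the source strand cannot be told apart.

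Scg2 and Chga, the broadly used granins, were at like levels on both sides. Scg2 (chromosome 1, 79412386 to 79417837, minus strand, 2 exons) was at 490, 320, 471, 324 and 528 CPM in TH+ cells and at 263, 312, 536, 444 and 430 CPM in TH- cells. The ranges overlapped almost wholly, and the fitted log2 difference was 0.05 ± 0.21. Chga (chromosome 12, 102520484 to 102531300, plus strand, 8 exons) was at 102, 126, 118, 86.5 and 429 CPM in TH+ cells and at 178, 81.0, 156, 190 and 162 CPM in TH- cells. The TH+ library of section 5, the shallowest of all, stood apart with 13 UMIs of Chga. The fitted log2 difference of Chga was -0.02 ± 0.32 over all sections and -0.45 without section 5.

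The remaining peptides were scarce. Npy (chromosome 6, 49799026 to 49806489, plus strand, 4 exons), whose peptide marks subsets of amacrine cells, had 1 UMI over all TH+ libraries and 19 over the TH- libraries, where it was at 13.2, 28.9, 7.44, 24.96 and 42.3 CPM. Vip (vasoactive intestinal peptide, chromosome 10, 5589186 to 5599956, plus strand, 7 exons) had 2 UMIs in TH+ cells and 16 in TH- cells. Tac1 (the precursor of substance P and neurokinin A, chromosome 6, 7554120 to 7565834, plus strand, 5 exons) had 3 and 15. All 3 were seen more often in TH- cells in raw UMIs, but TH- libraries were also deeper. As a ratio of pooled rates, TH+ to TH-, Npy gave 0.165 with a counting interval of 0.00397 to 1.04, Vip 0.392 (0.0437 to 1.67) and Tac1 0.628 (0.116 to 2.22). Each interval includes equal rates.

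Penk (the precursor of the enkephalins, chromosome 4, 4132722 to 4141856, minus strand, 2 exons) and Cck (cholecystokinin, chromosome 9, 121315695 to 121324863, minus strand, 3 exons) had no UMI in any TH+ library. In TH- libraries Penk had 1, 0, 0, 3 and 2 UMIs and Cck 2, 0, 1, 4 and 1. Their TH- means, 7.13 ± 7.28 and 9.52 ± 7.47 CPM (SD, n = 5), lie below the 11.7 CPM that a count of 0 allows in TH+ cells, so a difference was not detectable at this depth. Exons of Penk overlap the opposite-strand A830012C17Rik, and those of Cck overlap Gm68675 and Gm69828.

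**Figure D2:**
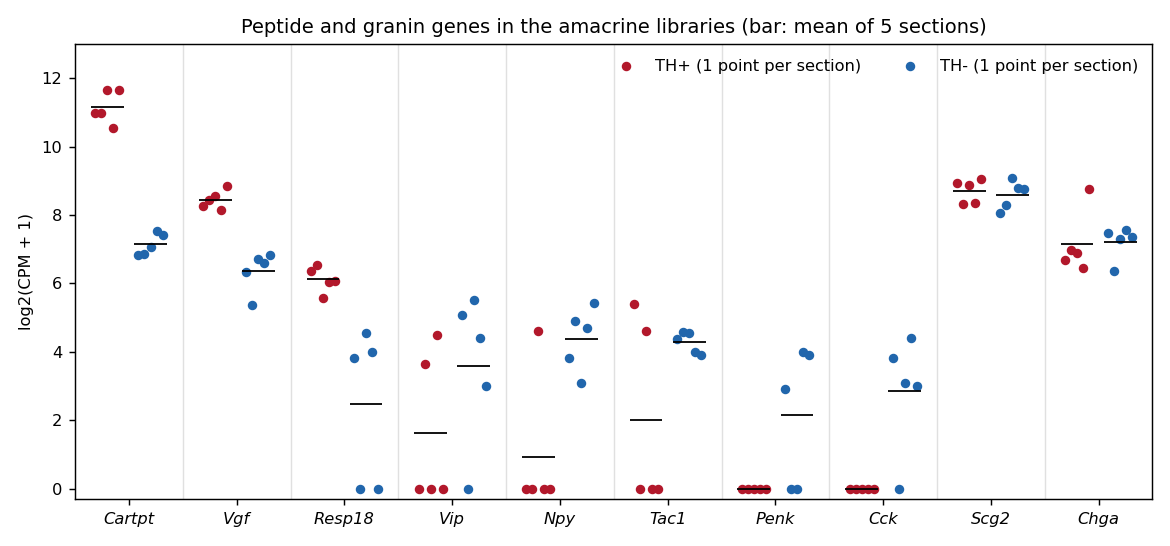
Level of each gene in the TH+ (red) and TH- (blue) libraries as log2(CPM + 1), with 1 point per section in the order of section number and a bar at the mean of the 5 plotted values. Cartpt, Vgf and Resp18 did not overlap between the groups, Scg2 and Chga did, and Penk and Cck lie at 0 in all 5 TH+ libraries.

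Of the 10 genes, 5 passed the filter of the fit, which is a cutoff on CPM. Resp18 passed it through its TH+ libraries alone, being at most 22.3 CPM in TH- cells. Npy, with 19 UMIs in TH- cells, did not pass. Adjusted p was under 0.05 for Cartpt, Vgf and Resp18 (3 of 5), all higher in TH+ cells. Among the 6021 genes tested, 0.747% were called higher. Without overlap between groups, 3 of 10 lay higher in TH+ cells, as did 0.364% of all 18415 genes with a UMI. The 10 genes were picked with these values in view, so nothing is read from either count. The filter also lets a gene pass on fewer UMIs in the shallower TH+ libraries than in TH- libraries. Without section 2 the first count was 2, since Resp18 was no longer called. The median log2 fold change of the 5 tested was 2.004, against -0.05 over all genes tested, and nothing is read from it either.

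Per length of transcript, the order within TH+ cells was Cartpt at 1875 ± 616 RPKM (CPM per kilobase of gene length), Scg2 at 170 ± 38.7, Vgf at 119 ± 23.7, Resp18 at 68.0 ± 16.6 and Chga at 62.5 ± 52.3 (SD, n = 5). Scg2 and Vgf overlapped, as did Resp18 and Chga, while Cartpt stood clear of Scg2. In TH- cells Scg2 led at 158 ± 43.4 RPKM, overlapping Cartpt at 112 ± 25.4, and Chga at 55.6 ± 15.4 overlapped Npy at 41.3 ± 24.2. Npy is the shortest of these genes, and on the CPM scale it stood behind Vgf in TH- cells.

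Genes that make, pack and sense peptides were read in the same fit of TH+ against TH- cells. None of the 4 other granins was called, and their median log2 fold change was -0.08, beside -0.05 over all genes tested, of which 0.083% were called lower. Pcsk1n, whose product proSAAS inhibits prohormone convertase 1, was the most abundant, at 686 ± 208 CPM in TH+ and 465 ± 147 CPM in TH- cells (log2 fold change 0.51 ± 0.21, adjusted p = 0.410). Scg3 was at 208 ± 42.5 and 250 ± 28.4 CPM, Scg5 at 233 ± 114 and 208 ± 40.1 CPM, and Chgb at 125 ± 23.3 and 150 ± 37.7 CPM.

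None of the 7 processing enzymes tested was called either (median 0.12 on the log2 scale). Cpe (carboxypeptidase E, which trims cut precursors) was at 600 ± 94.9 CPM in TH+ and 547 ± 93.4 CPM in TH- cells, and Pam (the amidating enzyme) at 261 ± 46.4 and 164 ± 39.0 CPM (adjusted p = 0.369). Furin, Pcsk2 and Cpd, the next in level, had adjusted p of 0.807, 0.959 and 0.957.

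Among the proteins of the granule membrane and of vesicle priming, 2 of 14 tested were higher in TH+ cells and none lower (median log2 fold change -0.07). Ptprn, a receptor-type phosphatase homolog that spans the dense-core vesicle membrane, was at 674, 709, 1223, 843 and 594 CPM in TH+ cells and at 316, 278, 231, 394 and 402 CPM in TH- cells. The groups did not overlap, and the log2 fold change was 1.30 ± 0.19 (adjusted p = 9.21e-06). Baiap3, a Munc13-related factor of dense-core vesicle exocytosis, was at 123, 137, 282, 108 and 231 CPM in TH+ cells and at 13.2, 11.6, 89.3, 34.9 and 28.2 CPM in TH- cells (2.25 ± 0.41, adjusted p = 3.50e-04). Both kept their calls under all 11 alternatives. The general release proteins Vamp2 (adjusted p = 0.946), Snap25 (0.984) and Syt1 (0.507) were not called, nor was Cadps (0.477), a priming factor of dense-core vesicles.

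Of 53 other peptide precursors, 18 had any UMI and only Nucb1 could be tested (adjusted p = 0.881). Pdyn, the dynorphin precursor, had 4 UMIs in TH+ and 24 in TH- cells, Sst (somatostatin) 3 and 5, Apln (apelin) 3 and 4, and Nucb2 2 and 7. Of 18 receptors for the peptides of this group and their relatives, 4 were tested and none called (median log2 fold change 0.93). Tacr1, the substance P receptor, was at 88.1 ± 52.3 CPM in TH+ and 30.8 ± 19.5 CPM in TH- cells (1.54 ± 0.47, adjusted p = 0.122). Vipr2, Adcyap1r1 and Tacr3 had adjusted p of 0.868, 0.622 and 0.634, and Oprl1 had 3 and 23 UMIs.

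The TH+ and TH- barcodes were laid on the same sections. With the section as a replicate block, 148 genes were called in place of 50, among them Pcsk1n (0.58 ± 0.16, adjusted p = 0.0143) and, as lower in TH+ cells, the vesicle protein Syt7 (-0.64 ± 0.19, adjusted p = 0.0364). The same pairing raised the count of rod markers called higher in TH+ cells from 2 of 9 (Sag among them, adjusted p = 0.0411) to 8 of 9, while DESeq2 called 0 of 9. No ganglion, bipolar, cone or Müller marker was called without the block. Rod markers thus moved with the group. In the ONL of the separate layer sections, Cartpt, Vgf and Resp18 had means of 11.9, 8.87 and 2.25 CPM. The part of rod RNA in the values above was not tested.

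Among the genes whose log2 CPM most resembled each pattern over the 10 amacrine libraries were Th (Pearson r = 0.985) for Cartpt and Cartpt (0.959) for Vgf. For Scg2 they were Abhd4 (0.933) and Hid1 (0.927), and for Chga Dnajc5 (0.942) and Sfxn1 (0.930). These are among the highest of all genes with at least 50 UMIs, over points that share sections and differ in depth, and they describe a likeness only.

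The layers give a second view of the same genes. Cartpt was at 141, 142, 169 and 205 CPM in the GCL of sections 1 to 4, at 15.5, 14.4, 15.2 and 24.7 CPM in the BCL, and at 24.97, 2.77, 6.85 and 12.9 CPM in the ONL. The GCL lay above both other layers in every section, with log2 fold changes of 3.37 ± 0.32 against the BCL and 3.49 ± 0.25 against the ONL. Its mean in the GCL, 164 ± 29.9 CPM (SD, n = 4), was close to that in TH- amacrine cells, although the 2 tables come from separate experiments and were not tested against each other. The GCL held few UMIs of dopaminergic markers, 3.82 to 16.9 CPM in sum.

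Resp18 was at 51.0, 42.0, 56.9 and 49.5 CPM in the GCL, at 5.16, 4.80, 0 and 4.94 CPM in the BCL and at 6.24, 2.77, 0 and 0 CPM in the ONL. Vgf was at 34.4, 40.5, 58.4 and 30.7 CPM in the GCL, at 0, 4.80, 10.2 and 9.89 CPM in the BCL and at 12.48, 5.53, 4.57 and 12.9 CPM in the ONL. Both were thus highest in the GCL without overlap, by 3.80 ± 0.53 and 2.82 ± 0.51 against the BCL and by 3.75 ± 0.39 and 2.02 ± 0.33 against the ONL on the log2 scale. All 3 genes that lay higher in TH+ amacrine cells were highest in the GCL among the layers. By mean CPM so were Npy, Tac1, Penk, Cck and Chga, but not Scg2 and Vip, so this does not set the 3 genes apart.

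Penk was at 38.2, 27.0, 56.9 and 27.3 CPM in the GCL, had 2 UMIs in the BCL, both in section 1, and 3 UMIs in the ONL. Its log2 fold change from ONL to GCL, 4.43 ± 0.52, was the highest of the 9 genes fitted over all sections. Without section 1 it was 4.38, below those of Resp18, Cartpt and Cck. Tac1 was at 24.2, 24.0, 7.69 and 29.0 CPM in the GCL, had 2 UMIs in the BCL, and had 10, 1, 0 and 1 UMIs in the ONL, where section 1 (12.48 CPM) overlapped the lowest GCL library. Vip was barely seen in any layer, with 5, 1 and 5 UMIs in the GCL, BCL and ONL, against 16 in the TH- amacrine libraries, which held 134394 to 200344 UMIs each.

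Npy and Cck were at their lowest mean levels in the ONL. Npy was at 15.3, 30.0, 13.8 and 13.7 CPM in the GCL, 10.3, 14.4, 5.08 and 4.94 CPM in the BCL and 2.50, 1.38, 4.57 and 0 CPM in the ONL. Cck was at 28.03, 25.5, 18.4 and 30.7 CPM in the GCL, 25.8, 9.60, 15.2 and 14.8 CPM in the BCL and 4.99, 0, 0 and 3.22 CPM in the ONL. For both genes GCL and BCL overlapped, and both lay above the ONL in all sections. The log2 difference from BCL to GCL was 1.201 ± 0.55 for Npy and 0.82 ± 0.44 for Cck. That from ONL to BCL was 1.55 ± 0.82 for Npy, on 7 UMIs in the BCL and 5 in the ONL, and 2.42 ± 0.71 for Cck, on 13 and 5.

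Scg2 overlapped between the GCL and the BCL as well, at much higher levels than Npy and Cck. It was at 436, 436, 438 and 418 CPM in the GCL, 490, 456, 381 and 539 CPM in the BCL, and 144, 147, 100 and 99.9 CPM in the ONL. The GCL libraries differed by less than counting error alone would give (SD ratio 0.360). GCL and BCL overlapped, with a fitted log2 difference of 0.06 ± 0.13, and both lay above the ONL, by 1.59 ± 0.13 and 1.53 ± 0.15. Chga was at 190, 174, 209 and 229 CPM in the GCL, 155, 125, 168 and 114 CPM in the BCL, and 66.2, 66.4, 54.8 and 29.0 CPM in the ONL. It stepped down at each layer without overlap, by 0.68 ± 0.17 from GCL to BCL and by 0.92 ± 0.21 from BCL to ONL.

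**Figure D3:**
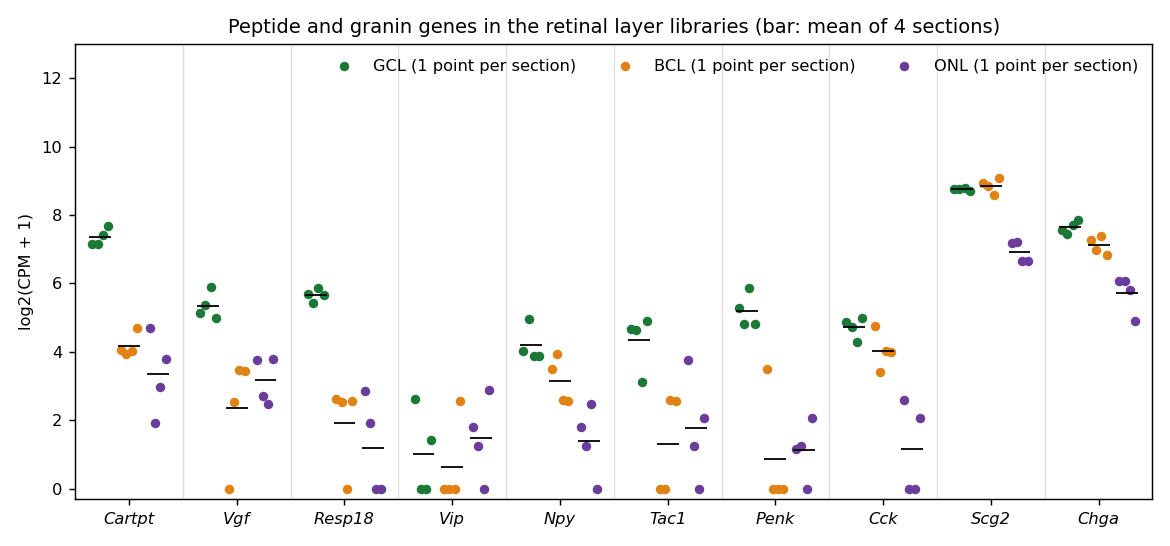
Level of each gene in the GCL (green), BCL (orange) and ONL (purple) libraries as log2(CPM + 1), with 1 point per section in the order of section number and a bar at the mean of the 4 plotted values. Cartpt, Vgf, Resp18 and Penk were highest in the GCL, Scg2 was alike in the GCL and BCL, and the first purple point of Cartpt, Tac1 and Resp18 is the highest of its group.

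Of 9 genes fitted in the layers (Vip had too few UMIs), 9 were called higher in the GCL than in the ONL, where 32.2% of 11324 genes were. Against the BCL 6 of 9 were (Cartpt, Vgf, Resp18, Tac1, Penk and Chga), beside 20.4% of all genes tested, and from ONL to BCL 3 of 9 were higher (Scg2, Chga and Cck), beside 18.2%. Without overlap, 8, 6 and 4 of 10 lay higher in these comparisons, as did 17.6%, 9.5% and 11.1% of all 23934 genes with a UMI. These levels belong to those on which the genes were chosen, and nothing is read from the counts. The 3 comparisons share their layers. The median log2 fold change of the 9 was 2.75 for GCL against ONL, 2.82 for GCL against BCL and 0.50 for BCL against ONL, while that of all genes tested was -0.0041, 0.02 and -0.09.

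**Figure D4:**
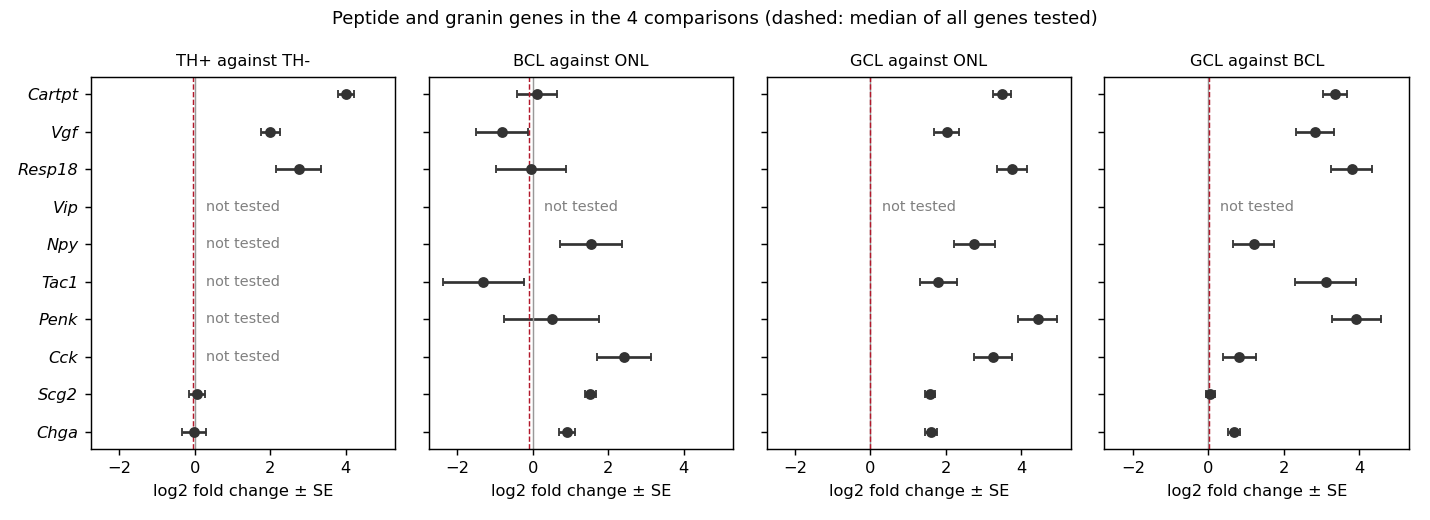
Fitted log2 fold change of each gene with its SE (x axis) in the comparisons of TH+ with TH- cells, BCL with ONL, GCL with ONL and GCL with BCL, with a dashed line at the median of all genes tested. Cartpt, Vgf and Resp18 lie to the right in each panel that sets TH+ cells or the GCL against another population, and Scg2 lies near 0 in the first and the last panel. In the panels of the GCL, Npy, Tac1, Penk, Cck and Chga lie to the right as well.

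The ONL library of section 1 held more of several peptides than the other ONL libraries. Cartpt had 20 UMIs there and 2 to 4 in the others, Tac1 10 and 0 to 1, and Resp18 5 and 0 to 2. The 6 peptide precursors together were at 48.7, 8.30, 11.4 and 29.0 CPM in ONL sections 1 to 4. The 11 ganglion cell markers, all with UMIs in the ONL, summed to 743, 374, 441 and 722 CPM in the same libraries, and the amacrine markers (9 of 10 detected, Ptf1a at 0) to 697, 396, 386 and 596 CPM. The Müller markers summed to 1133, 647, 710 and 1183 CPM and the bipolar markers to 1296, 1043, 1080 and 1351 CPM. Sections 1 and 4 were thus the higher ones in all 5 sums, whereas the cone markers, at 1810, 2276, 2148 and 1061 CPM, were lowest in those sections. Other sums did not divide the sections in this way. Vgf, Resp18, Scg2 and Chga together, at 228, 221, 160 and 142 CPM, were lowest in section 4. Rod markers, at 57350, 66880, 70720 and 70370 CPM, were lowest in section 1 but not in section 4. Horizontal cell markers, at 23.7, 24.9, 20.6 and 32.2 CPM, were lower in section 1 than in section 2. The part of these cells in the ONL values was not tested. Without section 1 the log2 fold change of the GCL over the ONL was 4.59 in place of 3.49 for Cartpt, 3.49 in place of 1.80 for Tac1, 4.79 in place of 3.75 for Resp18 and 4.58 in place of 3.24 for Cck. That of the BCL over the ONL went from 0.12 to 1.19 for Cartpt and from -1.31 to 0.83 for Tac1. It went from 2.42 to 3.51 for Cck, from -0.05 to 0.83 for Resp18 and from -0.80 to -0.06 for Vgf. For Penk it went from 0.50 to a negative value that is no bound, since the BCL then held 0 UMIs of Penk.

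Per length of transcript Scg2 led in every layer, at 172 ± 3.65 RPKM in the GCL, 186 ± 26.4 in the BCL and 48.8 ± 10.3 in the ONL (SD, n = 4). In the GCL it was followed by Cartpt at 129 ± 23.4, Chga at 72.7 ± 8.63 and Resp18 at 48.3 ± 5.94, each without overlap with the next above. Npy, which overlapped Resp18, Penk, Cck and Vgf followed with ranges that overlapped from each to the next, then Tac1 at 6.24 ± 2.74 and Vip at 0.4999 ± 0.706. In the BCL Chga at 50.9 ± 9.15 stood clear of Npy at 15.3 ± 8.05, which overlapped Cartpt and Cck. In the ONL all genes below Chga overlapped with a neighbour.

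Other genes of the pathway are read against all genes tested, of which 29.3% were called lower in the GCL than in the ONL, 16.1% lower in the GCL than in the BCL and 18.5% lower in the BCL than in the ONL. The 4 other granins had median log2 fold changes of 0.91, 0.27 and 0.74 in these comparisons. All 4 were higher in the GCL than in the ONL, led by Pcsk1n (1.06 ± 0.11, adjusted p = 2.27e-12), Scg3 (0.99 ± 0.13, adjusted p = 7.88e-09) and Scg5 (0.83 ± 0.12, adjusted p = 6.26e-08). From ONL to BCL, Scg3 (1.08 ± 0.16, adjusted p = 8.67e-08), Chgb (1.06 ± 0.17, adjusted p = 9.71e-07) and Pcsk1n (0.42 ± 0.13, adjusted p = 0.00556) were higher. Scg5, the 7B2 chaperone of prohormone convertase 2, was lower there (-0.50 ± 0.18, adjusted p = 0.0248), a call that was lost under 6 alternatives, and Pcsk1n lost its call without section 3. Between GCL and BCL, Scg5 (1.33 ± 0.16, adjusted p = 1.05e-09) and Pcsk1n (0.63 ± 0.12, adjusted p = 1.12e-05) were higher in the GCL.

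The processing enzymes went in both directions, with median log2 fold changes of 0.59 for GCL against ONL, 0.35 for GCL against BCL and -0.33 for BCL against ONL. In the GCL against the ONL, 4 of 10 were higher, among them Pam (2.61 ± 0.19, adjusted p = 3.52e-18), Pcsk2 (1.38 ± 0.16, adjusted p = 1.14e-10) and Pcsk1 (3.22 ± 0.51, adjusted p = 2.60e-07), the convertases of dense-core vesicles. Cpe (-0.83 ± 0.12, adjusted p = 1.48e-08), Pcsk4 (-2.49 ± 0.79, adjusted p = 0.00520) and Furin (-0.35 ± 0.15, adjusted p = 0.0318, lost under 6 alternatives) were lower. Cpe was at 900 ± 186 CPM in the ONL and 574 ± 34.7 CPM in the GCL. Against the BCL, 5 of 10 were higher in the GCL, led by Pcsk2 (1.97 ± 0.23, adjusted p = 2.13e-10), Pam (1.34 ± 0.19, adjusted p = 6.57e-08) and Pcsk1 (2.83 ± 0.64, adjusted p = 3.11e-04).

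The BCL was marked by 2 other enzymes. Qpct, the glutaminyl cyclase that forms N-terminal pyroglutamate, was at 228 ± 42.9 CPM in the BCL, 20.6 ± 5.70 CPM in the GCL and 12.4 ± 3.34 CPM in the ONL. The convertase Pcsk6 was at 95.1 ± 16.2, 14.2 ± 1.19 and 12.3 ± 15.6 CPM in the same order. Both were higher in the BCL than in the GCL (adjusted p = 1.07e-18 and 6.11e-09) and than in the ONL (adjusted p = 3.78e-19 and 1.16e-09). Pam was also higher in the BCL than in the ONL (1.28 ± 0.27, adjusted p = 1.25e-04), and Cpe (-0.94 ± 0.13, adjusted p = 2.63e-08) and Cpd (-0.71 ± 0.24, adjusted p = 0.0152, lost with DESeq2 and without section 1) were lower, 3 up and 2 down of 10.

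Of 16 granule membrane and priming genes tested, 11 were higher and 1 lower in the GCL than in the ONL, and the median log2 fold changes were 1.55 for GCL against ONL, 0.80 for GCL against BCL and 0.44 for BCL against ONL. Ptprn2 (3.19 ± 0.15, adjusted p = 8.30e-25), Syt4 (2.75 ± 0.16, adjusted p = 1.75e-21) and Ptprn (1.96 ± 0.12, adjusted p = 2.21e-20) led, and Syt9, a synaptotagmin calcium sensor, was lower (-0.82 ± 0.19, adjusted p = 2.44e-04). Against the BCL, 8 were higher in the GCL, led by Ptprn (2.46 ± 0.16, adjusted p = 3.48e-19), Ptprn2 (2.41 ± 0.17, adjusted p = 1.45e-17) and Syt7 (2.701 ± 0.21, adjusted p = 9.16e-16). Syt9, Baiap3 and Syt10 were among the 4 that were lower (adjusted p = 2.14e-15, 1.42e-05 and 3.86e-04). In the BCL against the ONL, 7 were higher, led by Syt4, Cadps and Syt9 (adjusted p = 1.60e-15, 1.30e-18 and 5.52e-10), and Syt1 (-0.52 ± 0.11, adjusted p = 9.07e-05), Vamp2 (-0.33 ± 0.11, adjusted p = 0.0102) and Ptprn (-0.50 ± 0.19, adjusted p = 0.0344) were lower. The calls of Vamp2 and Ptprn were lost under 1 and 6 alternatives. Ptprn was thus higher both in TH+ amacrine cells and in the GCL, whereas Baiap3 was higher in TH+ cells and in the BCL than in the GCL.

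Of the other 53 peptide precursors, 30 had a UMI in the layers and 3 were tested. Tac2, the neurokinin B precursor, was at 75.4 ± 20.2 CPM in the GCL, 2.52 ± 2.92 CPM in the BCL and 7.08 ± 6.44 CPM in the ONL (3.10 ± 0.33 against the ONL, adjusted p = 6.65e-12, and 4.90 ± 0.58 against the BCL, adjusted p = 6.28e-10). Its mean CPM in the GCL lay above those of 5 of the 6 peptide precursors of the group and below that of Cartpt. Nucb2, the nesfatin precursor, was lower than in the ONL in both the BCL (-1.59 ± 0.43, adjusted p = 0.00237) and the GCL (-2.64 ± 0.36, adjusted p = 9.27e-09).

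Of the 18 receptors 8 were tested, with median log2 fold changes of 1.87 for GCL against ONL, 2.30 for GCL against BCL and 0.50 for BCL against ONL. In the GCL against the ONL 6 were higher and 1 lower, among them Vipr2, a VIP and PACAP receptor (1.45 ± 0.22, adjusted p = 9.70e-08), Adcyap1r1, the PACAP receptor (3.17 ± 0.50, adjusted p = 2.03e-07), and Oprl1, the nociceptin receptor (3.04 ± 0.50, adjusted p = 6.12e-07). Against the BCL 5 were higher and 1 lower in the GCL, led by Oprl1 (2.19 ± 0.58, adjusted p = 0.00195), Adcyap1r1 (1.83 ± 0.53, adjusted p = 0.00440) and Tacr1 (2.83 ± 0.82, adjusted p = 0.00448, lost without section 2). Tacr3, the neurokinin B receptor, was higher in the BCL, at 107 ± 11.7 CPM against 9.82 ± 4.72 CPM in the GCL (adjusted p = 2.22e-13) and 4.32 ± 1.87 CPM in the ONL (adjusted p = 3.73e-14). Vipr2 was also higher in the BCL than in the ONL (1.31 ± 0.28, adjusted p = 1.35e-04).

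Cckbr, a receptor for cholecystokinin and gastrin, was higher in the ONL. It was at 34.6 ± 9.87 CPM in the ONL, with 25.8 to 47.9 CPM over the 4 sections, had 0 UMIs in the BCL and was at 2.20 ± 2.62 CPM in the GCL. Set against the floor of 3 UMIs over the BCL libraries, the ONL level was at least 9.24-fold higher (adjusted p = 7.67e-08), and the GCL was lower than the ONL as well (adjusted p = 7.44e-11). Cck itself was at 2.05 ± 2.48 CPM in the ONL.

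**Figure D5:**
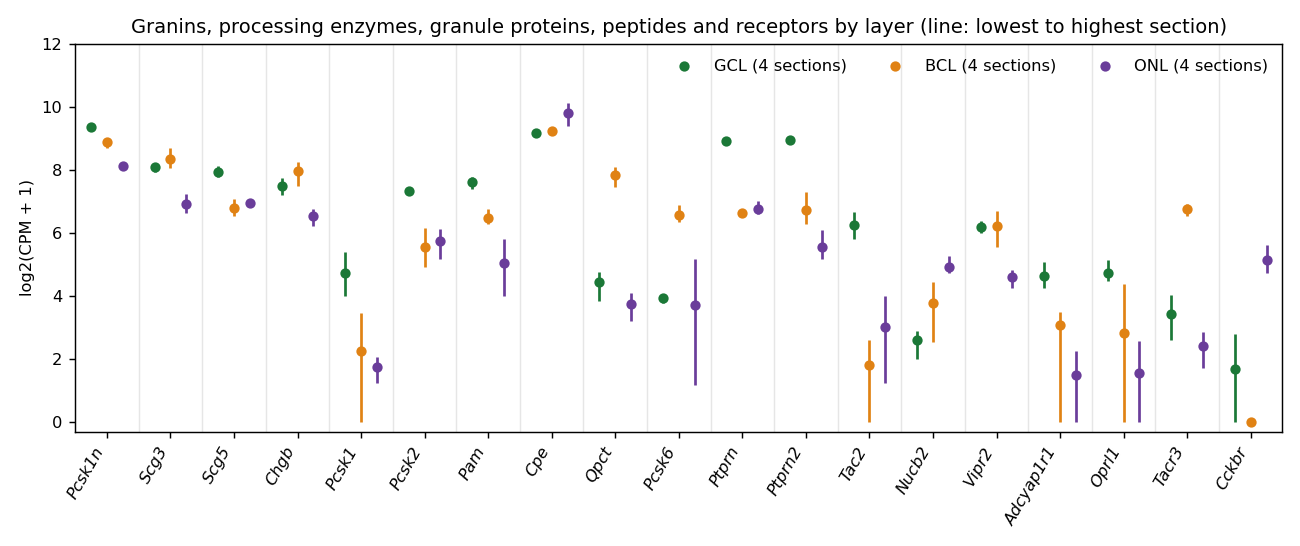
Level as log2(CPM + 1) of named granins, processing enzymes, granule proteins, peptide precursors and receptors in the GCL (green), BCL (orange) and ONL (purple), with a point at the mean CPM of 4 sections and a line from the lowest to the highest section. Qpct, Pcsk6 and Tacr3 are highest in the BCL, Cpe, Nucb2 and Cckbr in the ONL, and Pcsk1, Pcsk2, Pam, Ptprn, Ptprn2 and Tac2 in the GCL.

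Over the 12 layer libraries, genes among the nearest in pattern were Kank4 (r = 0.987) and Chd3 (0.985) for Cartpt, Cdh24 (0.966) for Vgf, Mt3 (0.982) and Rasd2 (0.982) for Resp18, and Nptxr (0.962) and Ncam2 (0.962) for Penk. They were Map4k2 and Prelp (both 0.964) for Npy, Kcns2 (0.916) and Hmgcs1 (0.913) for Tac1, and 9330159F19Rik (0.979) and Hdac11 (0.976) for Cck. For Scg2 they were Pcp4 (0.989) and Pag1 (0.988), and for Chga Atpif1 (0.982) and Hspa8 (0.981). No gene of the group was the nearest of another in the layers.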

How the data were processed

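The authors took barcode and UMI from the reads with UMI-tools 1.1.1, mapped the cDNA with STAR 2.7.9a to mm39 (GRCm39), discarded multiply mapping reads, counted over exons with unstranded featureCounts, and collapsed UMIs. The deposited counts are whole numbers of UMIs per gene and library, without normalization. The discarding lowers genes with near copies. Gene positions come from a later annotation release on GRCm39, matched by identifier, and promoters from RefSeq.

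CPM was computed from library totals and RPKM from the deposited gene length. edgeR 4.0.16 (R 4.3.3, TMM scaling, quasi-likelihood F-test, Benjamini-Hochberg over all genes tested, called at 0.05) gave the tests. It was fitted once over 10 amacrine and once over 12 layer libraries (6021 and 11324 genes). A gene was tested if it had 10 UMIs in total and met a CPM cutoff in as many libraries as the smallest group has. The cutoff equals 3 UMIs in a library of median size, so fewer UMIs meet it in a shallow library. SE is the log2 fold change divided by the square root of F. Counting intervals are exact 95% intervals. The fit was tested on simulated data.

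Sections pair the libraries cut from them, by the labels. Residuals of libraries from 1 section correlated at 0.0287 to 0.257 over the 5 amacrine pairs and at 0.0116 to 0.0493 over the 12 layer pairs.

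The genes and lists were chosen with earlier results of these data known. Named beyond the 10 genes are, per list and comparison, the 3 genes in each direction with the smallest adjusted p among those called, every list gene called between TH+ and TH- cells, and the 5 most abundant of each peptide-related list in amacrine libraries. Some genes that this rule names are not reported here. Marker lists are given by counts and sums. Alternatives were DESeq2 1.42.0, its size factors in edgeR, no filter, a filter of 10 and 15 UMIs, the section block, mitochondrial genes left out, each section left out, other CPM denominators and order without length.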

Additional observations from a re-analysis of the deposited data

Results flagged for a closer look

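In 8 of 48 combinations of gene and population, the highest or lowest section stood apart from the others of its group by Dixon's criterion. Normally distributed values meet it in about 1 in 20 groups. Levels that rest on few UMIs are not such values, and a group with UMIs in only 1 section always meets it. The count of 8 is therefore not set against that rate. The 2 at the highest levels were granins. Chga was at 429 CPM in the TH+ library of section 5, while the next TH+ library was at 126 CPM. Scg2 was at 418 CPM in the GCL of section 4, below the other 3 GCL libraries, which lay within 436 to 438 CPM. The GCL libraries as a group differed in Scg2 by less than counting error alone would give.

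The others were at lower levels. Npy was at 30.0 CPM in the GCL of section 2 and at 23.5 CPM in the TH+ library of section 3, where it rests on 1 UMI. In the BCL, Cartpt was at 24.7 CPM in section 4, Vip at 4.94 CPM in section 4 (1 UMI), Penk at 10.3 CPM in section 1 (2 UMIs) and Resp18 at 0 CPM in section 3.

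Among the cultured cells, which enter no comparison here, some counts of mouse 3T3 fibroblasts exceeded the 3 UMIs that a count of 0 allows. Cck had 4, 3 and 11 UMIs in wells 1, 2 and 3, so that wells 1 and 3 exceeded it. In the deeper sequencing of well 2, Cck and Vgf had 4 UMIs each.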

How the results depend on the processing

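The number of genes called between TH+ and TH- cells was 50, 148 with the section as a replicate block, and 29 to 73 when 1 section was left out. It fell to 29 without section 3 and to 31 without section 5. DESeq2 called 37, and 66 were called without a filter. Of the 50 genes 45 were higher in TH+ cells, against 96 of the 148 and 34 of the 66. All 50 were among the 148. For the layers each count stayed within 1.5 times its value. Of 85 calls of list genes in the text or its counts, 71 were kept under every alternative that tested them. With the block, Nucb1 (GCL against ONL, adjusted p = 0.0327) and Syt4 (GCL against BCL, adjusted p = 0.0477) were called in addition, and no call of a peptide-related gene was lost. Other denominators moved the mean level of the 10 genes by over 1 SD only for Scg2 in the GCL (475 CPM without mitochondrial genes). The cause of these changes was not tested. Depth limits Npy, Tac1, Vip, Penk and Cck in TH+ cells, where at most 3 UMIs were seen.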

Other observations

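In a test of the method, 3 wells of mixed culture held human HEK cells, which come from embryonic kidney and here stably expressed the transgene eGFP from a CMV promoter, and mouse 3T3 fibroblasts, and each species had its own barcode. In the first sequencing run HEK libraries held 238708 UMIs and 1 of SCG2, with 0 for the other 9 genes. The 3T3 libraries held 540880 UMIs, of which Cck had 18 (33.1 ± 20.6 CPM, SD, n = 3), Vip 3 and Vgf 2, and Cartpt, Resp18, Npy, Tac1, Penk, Scg2 and Chga 0.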
